A study of Mus musculus with 12 samples.

Results

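The nuclear genes of oxidative phosphorylation were followed through 2 ATAC-seq tables, 1 of brown fat (BAT) and 1 of inguinal white fat (iWAT), in which a peak is a stretch of chromatin open to the Tn5 transposase. Members were all peaks whose assigned gene symbol starts with Nduf, Sdha, Sdhb, Sdhc, Sdhd, Uqcr, Cox4, Cox5, Cox6, Cox7, Cox8 or Atp5, or is Cyc1 or Cycs. This gave 226 of 58558 peaks in BAT and 145 of 39558 peaks in iWAT, or 371 of 98116 peaks in both tables. They belonged to 91 genes in BAT and 85 in iWAT, and the 6 genes with a peak in BAT only were Atp5j, Atp5s, Cox7b2, Ndufb3, Ndufb5 and Sdhaf2.

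Both tables compared flox mice, which carry floxed alleles of BAF60a (gene Smarcd1, a subunit of the SWI/SNF chromatin remodelling complex) and no Cre, with AKO mice, which carry the same floxed alleles and a Cre driven by the Adiponectin promoter. That promoter is active in adipocytes, so that other cells of the fat keep the gene, and no group carried Cre without floxed alleles. BAT came from 3 mice per genotype, whose age and housing temperature are not given in the sources used here. The iWAT came from mice aged 6 to 8 months that were cooled stepwise and then spent 7 days at 10 °C. The pads of 6 mice per genotype were pooled and split into 3 aliquots, so that the spread in iWAT is technical and says nothing about differences between mice. Reads in peaks ranged from 6336670 to 27500738 per sample in BAT and from 4066720 to 6691161 in iWAT. The shallowest BAT library was AKO 2.

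Oxidative phosphorylation runs in the inner membrane of mitochondria. Complex I (the Nduf genes) takes electrons from NADH and complex II (the Sdh genes) from succinate, complex III (Uqcr genes and Cyc1) passes them to cytochrome c (Cycs), complex IV (Cox genes) hands them to oxygen, and complex V (Atp5 genes), the ATP synthase, uses the proton gradient that the other proton pumps build. Brown adipocytes are rich in mitochondria and let UCP1 spend that gradient as heat. Most of these genes are read in every cell from promoters bound by factors such as NRF1, GABP, YY1 and Sp1, and the ERR nuclear receptors raise many of them in tissues of high oxidative capacity.

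The targeted gene was looked at first. In BAT, a peak 2026 bp downstream of the start site (chr15:99704113-99704521, mm10) had 136, 201 and 185 normalized reads in flox 1 to 3 and 23.7, 57.9 and 26.9 in AKO 1 to 3. All AKO samples lay below all flox samples, with a log2 fold change of -2.98 ± 0.265 (SE), and limma gave a Benjamini-Hochberg adjusted p of 0.269. The position of the floxed segment is not given in the sources used here. The start-site peak of Smarcd1 had 369 to 485 reads in flox BAT and 412 to 497 in AKO BAT. In iWAT the start-site peak was the only Smarcd1 peak, with 188 to 249 reads in flox and 229 to 233 in AKO, so that no peak there checks the labels. Peaks were assigned to 7 of 7 adipocyte marker genes and 6 of 6 brown adipocyte marker genes in both tables, and to 3 of 10 skeletal muscle markers in BAT and 4 of 10 in iWAT.

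To show what lies at the start sites, 5 promoters are printed as the 250 bases before the RefSeq start site (mm10, 5′ to 3′ on the gene's strand). Atp5g1, Atp5g2 and Atp5g3 were chosen because they encode the same mature subunit c, which forms the rotating ring of the ATP synthase, and because they differed in level and in response; Cox7a1 and Cox8b because they encode the complex IV isoforms of heart, muscle and brown fat. Capitals mark matches to any motif searched on either strand: the ERR element TCAAGGTCA, the NRF1 core GCGCATGC, the GABP or ETS word CCGGAAGT, the YY1 word AAGATGGCG, the Sp1 word GGGGCGG, and the PPAR response element, taken as a direct repeat of AGGTCA with 1 base between them and up to 3 mismatches. A match is a description of the letters and not a bound site.
Atp5g1 (chr11:96075632-96075881, minus strand): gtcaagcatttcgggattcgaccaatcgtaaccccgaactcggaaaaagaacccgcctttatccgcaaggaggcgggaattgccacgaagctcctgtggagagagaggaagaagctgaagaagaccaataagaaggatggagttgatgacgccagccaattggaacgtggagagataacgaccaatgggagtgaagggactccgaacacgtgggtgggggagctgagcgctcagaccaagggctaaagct
Atp5g2 (chr15:102671048-102671297, minus strand): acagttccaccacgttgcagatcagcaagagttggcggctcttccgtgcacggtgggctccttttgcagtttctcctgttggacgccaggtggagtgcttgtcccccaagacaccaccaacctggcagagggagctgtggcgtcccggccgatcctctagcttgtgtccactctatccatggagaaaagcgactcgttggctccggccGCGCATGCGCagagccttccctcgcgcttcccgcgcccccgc
Atp5g3 (chr2:73911327-73911576, minus strand): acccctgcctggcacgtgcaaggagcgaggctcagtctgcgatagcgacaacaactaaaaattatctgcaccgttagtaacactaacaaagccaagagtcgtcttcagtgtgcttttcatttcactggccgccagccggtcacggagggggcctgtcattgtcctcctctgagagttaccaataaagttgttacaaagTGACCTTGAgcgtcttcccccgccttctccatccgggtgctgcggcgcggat
Cox7a1 (chr7:30183921-30184170, plus strand): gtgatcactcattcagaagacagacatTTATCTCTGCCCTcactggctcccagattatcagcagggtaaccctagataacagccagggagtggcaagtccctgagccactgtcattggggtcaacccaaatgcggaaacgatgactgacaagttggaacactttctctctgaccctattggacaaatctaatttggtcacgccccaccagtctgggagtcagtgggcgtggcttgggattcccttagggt
Cox8b (chr7:140900447-140900696, minus strand): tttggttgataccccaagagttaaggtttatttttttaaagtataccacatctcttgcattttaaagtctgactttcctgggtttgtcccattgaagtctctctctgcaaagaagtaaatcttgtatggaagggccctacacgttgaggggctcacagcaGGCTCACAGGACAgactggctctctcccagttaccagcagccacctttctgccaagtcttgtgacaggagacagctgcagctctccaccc

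The 3 promoters of subunit c shared none of the motifs searched. Atp5g3 held an ERR element at bases 199 to 207 counted from the 5′ end of the printed sequence, Atp5g2 held the NRF1 core on both strands in overlapping matches at bases 209 to 218, and no word was found in that of Atp5g1. Cox7a1 and Cox8b each held a loose PPAR response element with 3 mismatches, at bases 28 to 40 and 161 to 173. The match of Cox8b lies outside every Cox8b peak of both tables, since its start-site peak in BAT ends at chr7:140900501. Over whole RefSeq windows (250 bases before to 50 after the start, 79 windows of 74 of the 91 genes), the NRF1 core was found in 12 member windows (15.2%) against 2.71% of all 32851 windows, and the YY1 word in 8 (10.1%) against 1.40%. The ERR element was found in 2 member windows (2.53%, Atp5g3 and Sdhd) against 0.423%, the GABP or ETS word in 4 (5.06%) against 3.89%, and the Sp1 word in 25 (31.6%) against 23.2%. The loose PPAR response element was in 19 member windows (24.1%) and in 24.6% of all windows, so that it did not set the members apart, and no member window held an exact one. Cytosolic ribosomal protein genes, which also serve every cell, had the NRF1 core in 3.66% and the YY1 word in 7.32% of 82 windows.

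Member peaks sat at start sites more often than other peaks did. A start-site peak is here one whose midpoint lies within 1000 bp of a GENCODE start site of its gene, and 80 of the 226 member peaks in BAT (35.4%, against 21.6% of all peaks) and 75 of 145 in iWAT (51.7%, against 30%) were of this kind. Genes without one in either tissue were Atp5h, Cox4i2, Cox7b2, Cycs, Ndufa4l2, Ndufb9, Sdhaf1 and Sdhaf2, and no peak was assigned to Cox6a2 or Cox8c, the muscle isoform of subunit 6a and the testis isoform of subunit 8. Many member promoters were shared: 21 of 80 in BAT (26.2%) and 17 of 75 in iWAT (22.7%) also held the start site of another protein-coding gene, against 9.73% and 10% of all start-site peaks. Among them were Atp5j with Gabpa, Sdhd with Timm8b and Ndufa7 with Rps28, and at these peaks the reads cannot be given to either gene alone. Of the 145 other member peaks in BAT, 71 lay between genes, 49 inside another protein-coding gene and 25 inside the assigned gene, and 97 lay more than 10 kb from the start site. The 1 member peak left in each table was that of Atp5sl, a symbol not matched to a GENCODE gene, and it covers the start site of Dmac2. The largest groups were those named for Atp5o (19 peaks in BAT, 13 of them inside its neighbour Itsn1), Cox6c (11 peaks, 8 of them inside Vps13b) and Ndufb9 (10 peaks, all inside Mtss1), so that for such peaks the symbol says only which start site was nearest.

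The level of a start-site peak, as normalized reads per kb of peak, ranked the genes differently in the 2 fat depots. Atp5g3 had the highest level of 80 in BAT at 1506 reads per kb and ranked 41 of 75 in iWAT at 249.8. Its paralog Atp5g1 went the other way, with rank 76 in BAT at 237 and rank 6 in iWAT at 407. The called peak of Atp5g1 was 1904 bp wide in BAT and 909 bp in iWAT, and on reads per peak it ranked 49 and 6. Atp5g2 was in the middle of both lists, with ranks 49 and 37.

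Atp5a1 (the alpha subunit of the ATP synthase head) ranked 19 in BAT and 62 in iWAT, and Cox7a1 ranked 10 and 42. Other genes kept their place: Ndufs8, an iron-sulfur subunit of complex I, ranked 2 in both, and Sdhb, the iron-sulfur subunit of complex II, ranked 8 and 3. At the low end, Ndufs4 (an accessory subunit of complex I) ranked 80 of 80 and 70 of 75, and Cox6c ranked 79 and 73. The tables were normalized separately and differ in tissue, housing and replicate type, so that only ranks are compared and the differences in rank were not tested.

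**Figure D1:**
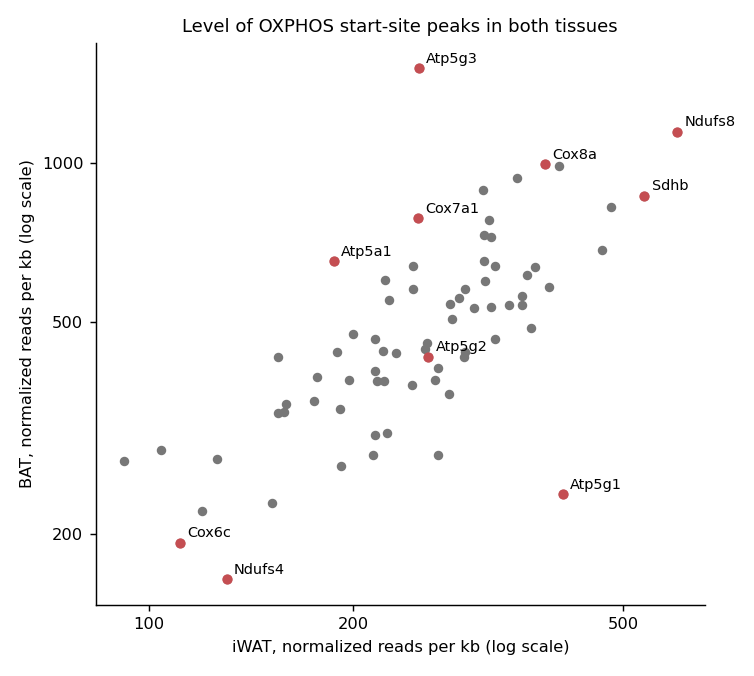
Mean normalized reads per kb over the 6 samples of each tissue (both axes on a log scale) for OXPHOS genes with a start-site peak in both tables; red points are named. Atp5g3 lies at 1506 reads per kb in BAT and 249.8 in iWAT, and Atp5g1 at 237 and 407.

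In BAT, no member peak differed between AKO and flox at an adjusted p under 0.1. The limma fit with the first principal component (PC1) as covariate called 0% of all 58558 peaks, and 5 member peaks had an unadjusted p under 0.05 with lower signal in AKO and 5 with higher signal, against 5.59% and 3.46% of all peaks. DESeq2 and edgeR with the same covariate, run on the recovered reads, called 0 members as well, where they called 0.217% and 0.114% of all peaks lower and 0.0803% and 0.0290% higher. On data simulated from these samples, limma rarely called small changes, with 3 of 94 peaks changed by 1 log2 unit and 100 of 106 changed by 2. DESeq2 called 54 of 94 and 105 of 106. In those data only peaks with a mean of at least 100 reads were changed. Samples differed there by genotype, depth and noise alone, so they do not show how the fit acts with the PC1 of the real samples.

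The direction of the start-site peaks in BAT depended on that covariate. As plain differences of mean log2 values, 72 of 80 member start-site peaks (90.0%) were lower in AKO, with a median of -0.19, against 56.7% and a median of -0.05 for all 12625 start-site peaks. In the fit with PC1, 27 of 80 (33.8%) were lower, with a median of 0.08, against 28.3% and a median of 0.11 for all. PC1 held 55.6% of the variance, and its scores were -98.2, -41.8 and 14.6 in flox 1 to 3 and -0.617, 112 and 13.5 in AKO 1 to 3, with the deepest library (flox 1) at 1 end and the shallowest (AKO 2) at the other. The parts of depth, PC1 and genotype in this direction were not tested.

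Without any fit, 14 of 80 member start-site peaks (17.5%) were lower in AKO with no overlap between the genotypes, where 6.07% of all start-site peaks were, and 0 were higher, where 10% of all were. Limma without PC1 also called 0 of them, with 4 at an unadjusted p under 0.05 and lower signal (Ndufb3, Ndufs4, Atp5g3 and Atp5j) and 0 with higher signal, against 1.42% and 6.78% of all start-site peaks. Leaving out flox 3 raised the lower count to 36 (45.0%, against 19.2% of all start-site peaks) and leaving out AKO 3 to 28 of 80 (against 14.4%), and without AKO 2 it was 14 (17.5%, against 7.22%). The higher count was 2 without flox 1, 1 without AKO 1 and 0 in the other settings, against 12.2% to 20% of all start-site peaks. The same sample values can be read as a share of all start-site reads, which needs no scaling between libraries. OXPHOS start-site peaks took 0.872%, 0.830% and 0.809% of them in flox 1 to 3 and 0.786%, 0.723% and 0.779% in AKO 1 to 3, which is 0.837% ± 0.0321 against 0.763% ± 0.0345 (SD, n = 3). Within flox the share fell with library depth, and the shallowest library, AKO 2, had the lowest share. AKO 1 had a larger share than the deeper AKO 3. Flox 3, with 10115267 reads in peaks, was shallower than AKO 1 (12886038) and AKO 3 (13821838) and had a larger share than both. The part of depth in the share was not tested. The genotypes did not overlap, and they did not overlap either without the Atp5g3 and Atp5j peaks, at 0.731% to 0.787% in flox and 0.676% to 0.724% in AKO. In iWAT the shares were 0.574%, 0.568% and 0.583% in flox and 0.562%, 0.563% and 0.572% in AKO, and the genotypes overlapped. In bulk tissue, fewer cells with open member promoters and less open promoters per cell cannot be told apart.

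**Figure D2:**
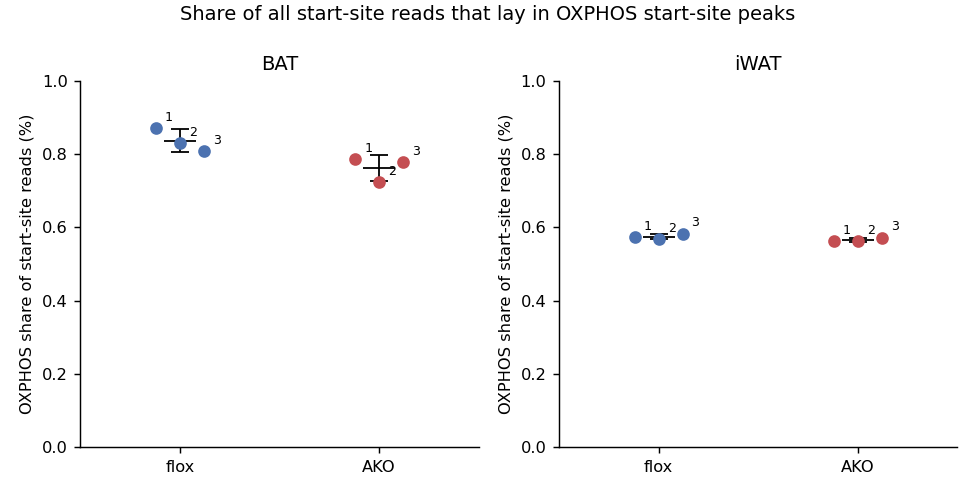
Percent of the normalized reads in all start-site peaks that lay in OXPHOS start-site peaks, 1 point per sample with its replicate number, black bars for mean and SD of 3. In BAT the flox samples lie at 0.809% to 0.872% and the AKO samples at 0.723% to 0.786%; in iWAT the ranges overlap.

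By complex, plain differences in BAT were negative for 13 of 13 start-site peaks of complex V (median -0.23), 31 of 33 of complex I (median -0.18), 10 of 13 of complex IV (median -0.21), 6 of 8 of complex III (median -0.19) and 2 of 3 of complex II (median -0.19). They were also negative for 7 of 7 complex I assembly factors. With PC1 the medians were -0.01 for complex V, 0.11 for complex I, 0.08 for complex IV, 0.11 for complex III and 0.17 for complex II. Complex V had the lowest median of the 5 on both scales, and the differences between complexes were not tested.

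**Figure D3:**
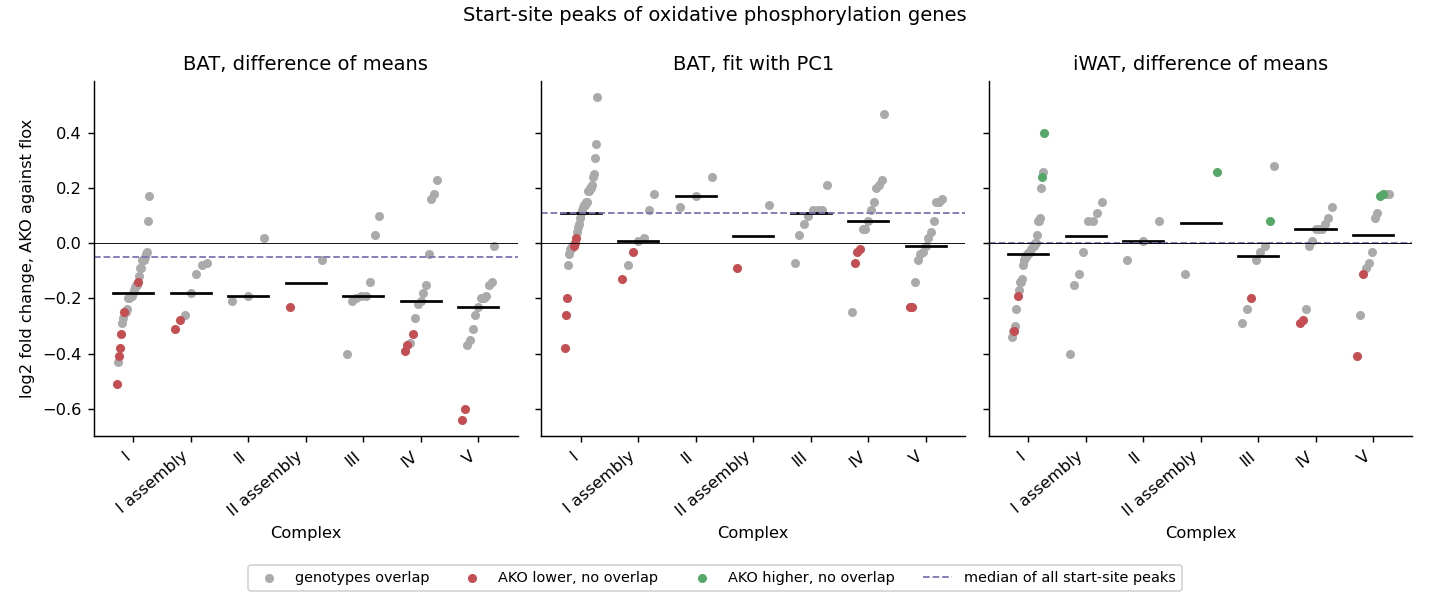
Log2 fold change of each OXPHOS start-site peak by complex, with a black line at the median of each complex and a dashed line at the median of all start-site peaks; Atp5s, no subunit of these complexes, is left out. Nearly all BAT points lie below 0 as differences of means (72 of 80 with Atp5s) and most lie above 0 in the fit with PC1, while iWAT points lie on both sides of 0.

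Atp5g3 and Atp5j stood out in complex V. The start-site peak of Atp5g3 (chr2:73910460-73911577), which spans the whole printed promoter with its ERR element and runs into exon 2, had 2425, 1901 and 1801 normalized reads in flox 1 to 3, and AKO 1 to 3 had 1529, 981 and 1465. All flox samples lay above all AKO samples. Its difference was -0.64 ± 0.233 (log2, SE; limma without PC1, Benjamini-Hochberg adjusted p 0.370) and -0.23 ± 0.181 with PC1 (adjusted p 0.731).

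Atp5j encodes coupling factor 6 of the stalk, and its peak (chr16:84834378-84836436) held 3186, 2447 and 2459 reads across the flox samples against 2063, 1356 and 1976 across the AKO samples. The groups did not overlap, and the difference was -0.60 ± 0.227 without PC1 (limma, adjusted p 0.378) and -0.23 ± 0.188 with it (adjusted p 0.748). The peak spans the shared promoter with Gabpa, the DNA-binding subunit of GABP. The other subunit c genes did not show this pattern in BAT: Atp5g2 had 784, 721 and 680.4 reads in flox 1 to 3, and AKO 1 to 3 had 703, 475 and 716, and Atp5g1 held 415, 378 and 576 reads across the flox samples against 401, 423 and 519 across the AKO samples.

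In complex I, the subunit genes Ndufa4, Ndufb3, Ndufb6, Ndufs3 and Ndufs4 had AKO values below flox values with no overlap. Ndufs4 had 276, 267 and 270.4 reads in flox 1 to 3, and AKO 1 to 3 had 193, 197 and 222. Its difference was nearly the same without PC1 (-0.41 ± 0.170; limma, adjusted p 0.399) and with PC1 (-0.38 ± 0.180, adjusted p 0.582). Ndufa4, counted here with complex I by its symbol although its protein is known as a subunit of complex IV, held 773, 656 and 661 reads across the flox samples against 633, 487 and 652 across the AKO samples, with a difference of -0.25 without PC1 and -0.00 with it. The complex I assembly factors Ndufaf5 and Ndufaf7 and the complex II assembly factor Sdhaf3 were also lower without overlap.

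In complex IV these were Cox5b, Cox7a1 and Cox7c. Cox7a1 (chr7:30183892-30184481) had 529, 527 and 501 reads in flox 1 to 3, and AKO 1 to 3 had 491, 274 and 459.6. The flox values lay close together, and AKO 2 was far below the other AKO samples. The difference was -0.39 ± 0.245 without PC1 (limma, adjusted p 0.538) and -0.03 ± 0.234 with it (adjusted p 0.983).

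Cox8b held 997, 698 and 643 reads at its start site in flox and 757, 448 and 621 in AKO, which overlap. A second Cox8b peak at -2339 bp from the start site (chr7:140902091-140903479) held 943, 870.5 and 742 reads across the flox samples against 680.4, 479 and 624 across the AKO samples, which do not. Its log2 difference was -0.53 without PC1 and -0.22 with it. The ubiquitous counterparts overlapped between genotypes: Cox8a held 556 to 817 reads in flox and 608 to 706 in AKO, Cox7a2 held 521 to 751 and 429 to 610.3, Cox4i1 held 708 to 946 and 585 to 792, and Cox6a1 held 515 to 711 and 523 to 567. Cox6b2, the testis isoform of subunit 6b, was higher on average in AKO without PC1 by 0.18 on the log2 scale and lower with it, at -0.25.

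**Figure D4:**
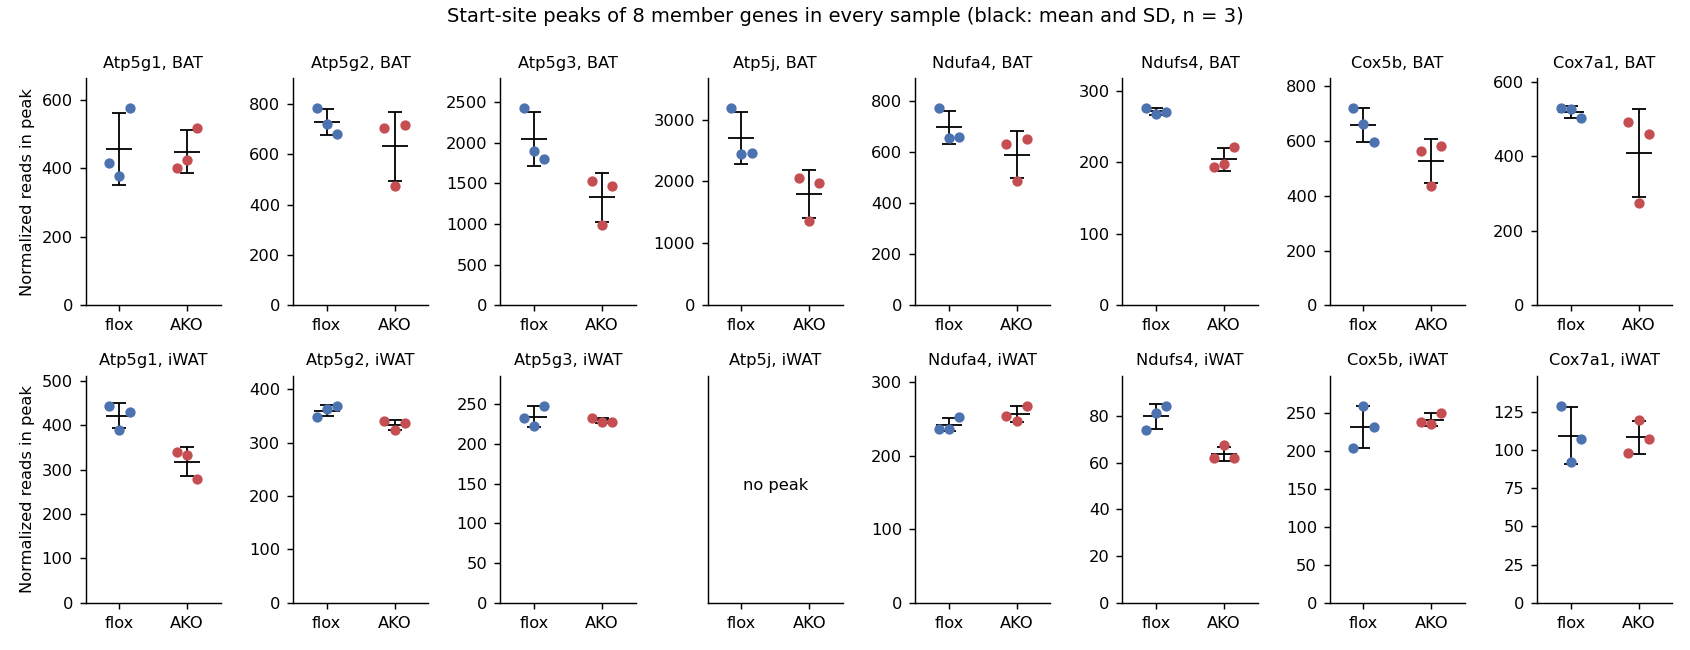
Normalized reads in the start-site peak of 8 member genes in every sample of BAT (top) and iWAT (bottom), with mean and SD of 3; each axis starts at 0, and the iWAT panel of Atp5j is empty because that table has no Atp5j peak. In BAT the flox points of Atp5g3, Atp5j, Ndufa4, Ndufs4, Cox5b and Cox7a1 lie above all AKO points; in iWAT this holds for Atp5g1, Atp5g2 and Ndufs4.

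Away from start sites, 13 of 145 member peaks in BAT were lower without overlap and 10 were higher, where 9.65% and 8.47% of all such peaks were. In data with so few samples these counts stand near the background. The Ndufb3 locus held 3 of the lower ones. Its start-site peak, shared with Fam126b, had 801, 709 and 574 reads in flox 1 to 3, and AKO 1 to 3 had 540.2, 446 and 471, and peaks 18130, 24187 and 29140 bp further along were lower without overlap as well. The farthest held 344, 328 and 305 reads across the flox samples against 259.8, 156 and 162 across the AKO samples, with a difference of -0.79 without PC1 (limma, adjusted p 0.343) and -0.54 with it (adjusted p 0.582). The iWAT table has no Ndufb3 peak.

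The member peak with the smallest p in BAT carried few reads and lay far from its gene. It was assigned to Cox7c, a small subunit of complex IV, at 277648 bp from the start site (chr13:85768539-85768859), and is named here after its values were seen, since its mean is under 50 reads. It had 67.9, 53.2 and 76.3 reads in flox 1 to 3, and AKO 1 to 3 had 24.7, 34.8 and 14.4, a difference of -1.83 ± 0.356 with PC1 (limma, adjusted p 0.417) and -1.45 ± 0.309 without it. Among peaks of at least 50 reads on average, the smallest p with lower signal belonged to a Ndufa12 peak at 42412 bp, whose groups overlapped, since flox had 66.4, 87.2 and 110.0 reads and AKO had 72.2, 104 and 45.1.

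Higher signal was seen in an intron of Cox4i2, the complex IV isoform of lung and low oxygen. The peak (chr2:152763962-152764810, intron 4) held 126, 151 and 173 reads across the flox samples against 231, 324 and 230.3 across the AKO samples, with no overlap. Its difference was 0.43 ± 0.171 with PC1 (limma, adjusted p 0.536) and 0.79 ± 0.218 without it. When PC1 was left out of DESeq2, a setting added after the values were seen, this peak passed with an adjusted p of 0.0769 and the distal Cox7c peak with 0.0598, where DESeq2 called 0.517% of all peaks lower and 0.512% higher.

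The smallest p with higher signal and at least 50 reads belonged to a peak at -8501 bp from the start site of Cox8a, inside Naa40, with 1219, 771 and 630.0 reads among flox samples and 1206, 693 and 826 among AKO samples. Its groups overlapped, and its difference was 0.64 with PC1 and 0.07 without it. A peak between genes, 26883 bp downstream of the start site of Ndufaf6 (a complex I assembly factor), was alike, with 407, 134 and 110.0 reads for flox and 414, 116 and 154 for AKO. In both, replicate 1 was the highest sample of each genotype. At start sites the smallest such p belonged to Ndufs6, where flox had 299.9, 193 and 193 reads and AKO had 275, 182 and 262, and to Cox6b1, where flox had 275, 228 and 184 and AKO had 248, 220.2 and 292.

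In cold-acclimated iWAT the member start-site peaks moved both ways. Of 75, 44 had a negative difference (58.7%, against 50% of all 11876 start-site peaks) with a median of -0.03 against 0.00. Without overlap, 7 were lower and 6 higher, where 9.62% and 9.46% of all start-site peaks were, and among the 69 other member peaks 4 were lower and 9 higher, where 10.5% and 11.1% of all such peaks were. The lower count rose to 11 without flox 1, 14 without flox 2, 12 without AKO 2 and 16 without AKO 3, against 13.1% to 17.2% of all start-site peaks in these settings, and the higher count to 10 without flox 1, 13 without flox 2 and 10 without AKO 1 or AKO 2, against 13.2%, 18.9%, 15.5% and 14.7% of all start-site peaks. Limma called 0% of all peaks, and 6 members had an unadjusted p under 0.05 in each direction, where 7.42% of all peaks were lower and 7.61% higher. On simulated data at this depth, in which only peaks with many reads were changed, limma called 77 of 104 peaks changed by 1 log2 unit.

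The count-based tests called a few member peaks in iWAT. DESeq2 called 1 lower and 1 higher, where it called 0.569% and 0.493% of all peaks, and edgeR called 1 lower and 2 higher, where it called 2.52% and 2.15%. A limma fit with a mean-variance trend called 1 lower and 2 higher, where it called 2.00% and 1.64% of all peaks. These counts are small beside 145 member peaks, and 1 or 2 of them is near the share of all peaks.

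The lower call was the start-site peak of Atp5g1 (chr11:96075288-96076196). It had 444, 390.2 and 430.4 reads in flox 1 to 3, and AKO 1 to 3 had 340, 333 and 280.1, with no overlap, and the difference was -0.41 ± 0.141. The adjusted p was 0.248 in limma, 0.0550 in DESeq2 and 0.0128 in edgeR. The paralog Atp5g2 held 348, 362 and 369 reads across the flox samples against 341, 323 and 337 across the AKO samples, also without overlap but with a difference of -0.11 ± 0.121, and Atp5g3, whose start-site peak had the most negative plain difference in BAT, had 232, 222 and 248 reads in flox 1 to 3, and AKO 1 to 3 had 233, 228 and 228.

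The higher calls lay away from start sites. The first was the iWAT peak between genes, 26873 bp downstream of the start site of Ndufaf6, which is shown since it gave the smallest p of any member in iWAT, and which held none of the motifs searched.
Ndufaf6 distal peak (chr4:11049214-11049448, plus strand): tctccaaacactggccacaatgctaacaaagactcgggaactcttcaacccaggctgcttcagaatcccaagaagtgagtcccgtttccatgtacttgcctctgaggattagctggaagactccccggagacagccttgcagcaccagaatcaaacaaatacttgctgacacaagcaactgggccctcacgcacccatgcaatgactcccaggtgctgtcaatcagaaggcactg
It held 21.4, 12.2 and 17.2 reads across the flox samples against 48.4, 43.4 and 33.1 across the AKO samples, with no overlap. The difference was 1.27 ± 0.232, with an adjusted p of 0.149 in limma, 0.0837 in DESeq2 and 0.0275 in edgeR. The second, called by edgeR alone of the count tests at an adjusted p of 0.0582, was assigned to Atp5o, a stalk subunit of complex V, but lies inside Itsn1 at 55585 bp (chr16:91875896-91876309). It had 44.2, 30 and 59.4 reads in flox 1 to 3, and AKO 1 to 3 had 78.4, 69.6 and 80.2. The overlapping BAT peak held 288, 369 and 344 reads across the flox samples against 385, 377 and 453 across the AKO samples, and it was the only one of 54 overlapping member peaks away from start sites that was higher without overlap in both tissues. Of all peaks away from start sites, 8.47% were higher without overlap in BAT and 11.1% in iWAT.

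Other iWAT members moved by less. Ndufc2, an accessory subunit of complex I, had 117, 112 and 94.7 reads in flox 1 to 3, and AKO 1 to 3 had 142, 144 and 141 (0.40 ± 0.136; limma, adjusted p 0.244). Ndufs4 held 74.1, 81.2 and 84.4 reads across the flox samples against 62.2, 67.4 and 62.0 across the AKO samples (-0.32 ± 0.128, adjusted p 0.307). Cox7a2l, a factor of respiratory supercomplexes, had 289, 285 and 283 reads in flox 1 to 3, and AKO 1 to 3 had 198, 261 and 248 (-0.29 ± 0.148, adjusted p 0.413).

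The isoforms of brown fat did not stand apart in iWAT. Cox7a1 held 129, 92.3 and 107 reads across the flox samples against 98.0, 119.9 and 107 across the AKO samples, and the intron 1 peak of Cox8b had 62.0, 67.8 and 79.2 reads in flox 1 to 3, and AKO 1 to 3 had 81.8, 92.5 and 72.7. A Ndufb9 peak inside Mtss1 at 59051 bp held 42.1, 41.1 and 56.8 reads across the flox samples against 87.6, 58.2 and 72.7 across the AKO samples, and a Uqcr11 peak inside Tcf3 had 34.9, 57.8 and 40.5 reads in flox 1 to 3, and AKO 1 to 3 had 61.1, 59.4 and 74.8.

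To ask whether the genotype effect differed between the tissues, the start-site peaks of 73 genes that overlap in the tables were compared by an exact permutation test over 400 assignments of the samples. The iWAT samples of a genotype are aliquots of a single pool, so that the p-values do not cover differences between mice in iWAT. The plain difference was negative in both tissues for 39 genes, negative in BAT alone for 27, negative in iWAT alone for 5 and positive in both for 2. The median was -0.19 in BAT and -0.03 in iWAT, and the BAT effect was the lower one for 57 of 73. For all start-site peaks the medians were -0.05 and 0.00, and the share of all overlapping peaks with the lower effect in BAT was not computed. These BAT values leave out PC1, and with it the median of the member start-site peaks was 0.08. No gene passed a two-sided Benjamini-Hochberg adjusted p of 0.1, and 3 had an unadjusted p under 0.05 in this exact test.

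The smallest p belonged to Atp5c1, the gamma subunit that turns inside the ATP synthase head, whose promoter it shares with Kin. It held 939, 696 and 693 reads in flox BAT and 626, 498 and 698 in AKO BAT, against 221, 225 and 225 in flox iWAT and 260.5, 234 and 261 in AKO iWAT. The effects were -0.35 and 0.17 on the log2 scale, and the difference of -0.52 gave an exact permutation p of 0.0150 (adjusted 0.479). Ndufa4 followed with -0.25 in BAT and 0.08 in iWAT (exact permutation p = 0.0200, adjusted 0.479). Of the 73 genes, 12 were lower without overlap in BAT and 7 in iWAT, where 6.07% and 9.62% of all start-site peaks were. In the other direction, 0 were higher without overlap in BAT and 6 in iWAT, where 10% and 9.46% of all start-site peaks were. Ndufs4 was the only gene lower without overlap in both tissues, at -0.41 in BAT and -0.32 in iWAT. The share of all overlapping start-site peaks lower in both was not computed.

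**Figure D5:**
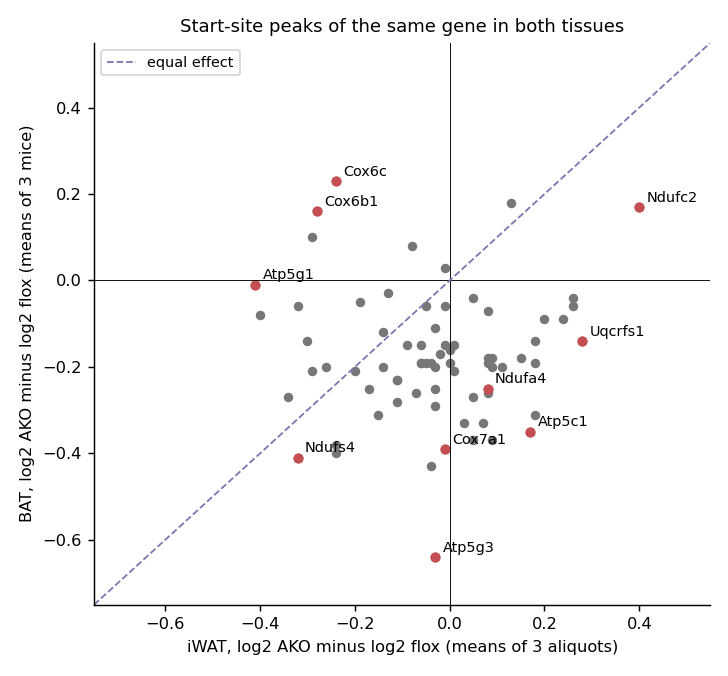
Difference of mean log2 values, AKO minus flox, of the start-site peaks of 73 genes in iWAT (x axis) and BAT (y axis), with the line of equal effect dashed; red points are named. Most points lie below the line (57 of 73), with Atp5g3 at -0.64 in BAT and -0.03 in iWAT, and Atp5g1 at -0.01 and -0.41.

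Related lists put these values in place. Start-site peaks of cytosolic ribosomal protein genes in BAT were lower in 59 of 70 as plain differences (84.3%, median -0.13) and in 9 of 70 with PC1 (median 0.16), so that the change of sign with PC1 was seen there as well, and 5 (7.14%) were lower and 1 (1.43%) higher without overlap, where 6.07% and 10% of all start-site peaks were. Assembly factors outside the rule were lower in 22 of 28 start-site peaks without PC1 (median -0.14), and genes of the tricarboxylic acid cycle, which feeds complexes I and II, in 10 of 10 (median -0.32). Over all 60 peaks of the tricarboxylic acid cycle, 18 were lower and 1 higher without overlap, where 8.84% and 8.77% of all peaks were. In the fit with PC1, 12 of these had an unadjusted p under 0.05 with lower signal and 0 with higher signal, where 5.59% and 3.46% of all peaks did; the same shares of all peaks apply to the next lists. Over 107 peaks of regulators such as the PGC-1 and ERR genes, 18 had p under 0.05 with lower signal and 1 with higher signal. Over 46 peaks of brown adipocyte markers, 20 had p under 0.05 with lower signal and 0 with higher signal, and their summed reads were 20257 to 25183 in flox and 14029.9 to 15716 in AKO. In iWAT the summed reads of that list were 1427 to 1482 in flox and 1651 to 1807 in AKO. The general adipocyte list summed to 21934 to 23328 reads in flox BAT and 15378 to 21033 in AKO BAT, also without overlap, and its ranges overlapped in iWAT. The muscle list, whose cells also use Cox7a1 and Cox8b, summed to 409 to 472 reads in flox BAT and 405 to 606 in AKO BAT, against 846 to 1056 and 808 to 833 in iWAT, where the genotypes did not overlap.

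The summed reads of other cell types also differed in places. In iWAT the endothelial list summed to 766 to 855 reads in flox and 671 to 739.9 in AKO, and the lymphocyte list to 498 to 505 and 392 to 479.5, both lower in AKO without overlap. In BAT the epithelial list also summed lower in AKO without overlap, with 733 to 784 and 696 to 729.9. Of its 6 peaks, which belong to 2 genes, 1 had a negative plain difference and 5 a positive one, so that the sum does not describe most of them. The macrophage list overlapped in both tissues, as did the endothelial and lymphocyte lists in BAT and the epithelial list in iWAT. The part of other cell types in the member values was not tested.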

How the data were processed

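Tn5-accessible chromatin was profiled in 12 samples, 3 of each genotype in BAT and in iWAT. The authors aligned reads to mm10 with BWA 0.7.17-r1188, removed duplicates with Picard 2.8.14, kept properly paired autosomal reads of mapping quality 30 or more, and called broad peaks with MACS2 2.1.1.20160309. Peaks called in at least 2 of 3 replicates were merged, reads were counted per peak with bedtools 2.27.1, and the deposited signal is those reads divided by a DESeq2 1.20.0 size factor per sample. The authors also deposited, per the file headers, the log2 fold change, p-value, Wald statistic (a score) and mean signal of their own comparison, none of which was used. All per-sample values came out within 6.80e-06 of a whole read after multiplication by the size factor, and these recovered reads were given to DESeq2 1.42.0 and edgeR 4.0.16 (quasi-likelihood) as alternatives.

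Main tests used limma 3.58.1 in R 4.3.3 on log2(normalized reads + 1) over all peaks of a table. Peaks were called at a Benjamini-Hochberg adjusted p under 0.1. As in the study's methods, PC1 of the log2 values was a covariate in BAT and not in iWAT. Fold changes on this scale understate those of low peaks. "Plain difference" is the difference of mean log2 values, and "without overlap" means that all samples of 1 genotype lie beyond all of the other; 3 against 3 samples cannot give an exact p under 0.1. Tissues were compared by an exact permutation test with scipy 1.17.1. Tests were checked on simulated data with 200 changed peaks. Start sites came from GENCODE, and 97.0% of BAT peaks and 97.2% of iWAT peaks were matched to one, which are the peaks counted as start-site or other. Promoters came from RefSeq (mm10).

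The members and lists were chosen with earlier results of these data known. Named were the genes with tissue-restricted and ubiquitous forms, the 6 peaks of smallest p in each direction with a mean of at least 50 reads, the highest start-site peak per complex, every called member and the pair of smallest p; genes named for non-overlap, for level or for a locus were chosen after their values were seen. Replicates of a genotype differed by more than counting noise, so that none was merged. Alternatives were other normalizations, filters, pseudocounts, tests, thresholds, covariates, a replicate block and leaving out each sample. Reads without molecular identifiers limit precision by counting alone, and the depth is given in the report.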

Additional observations from a re-analysis of the deposited data

Results flagged for a closer look

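At 2 of 54 overlapping member peaks away from start sites, the genotypes did not overlap in either tissue and moved in opposite directions. Of all peaks away from start sites, 9.65% were lower and 8.47% higher without overlap in BAT, and 10.5% and 11.1% in iWAT. The share of all overlapping peaks with opposite directions was not computed. The difference between the tissues was not tested at these 2 member peaks. An intergenic peak named for Uqcrfs1, the Rieske iron-sulfur subunit of complex III, had 228, 234 and 224 reads in flox BAT and 195, 183 and 178 in AKO BAT, against 92.0, 91.2 and 80.9 in flox iWAT and 92.2, 106 and 94.1 in AKO iWAT, so that the BAT effect minus the iWAT effect was -0.44 on the log2 scale. A peak named for Cox4i2 but lying inside Bcl2l1 was higher in AKO BAT (174, 216 and 164 reads against 102, 131 and 157) and lower in AKO iWAT (47.3, 34.3 and 39.6 against 61.3, 53.4 and 62.0), a difference of 1.06. In limma the Cox4i2 peak had adjusted p 0.811 in BAT with PC1 and 0.205 in iWAT.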

How the results depend on the processing

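Other normalizations (total reads, TMM, cyclic loess), a filter of at least 10 reads, pseudocounts of 0.1 and 10, a threshold of 0.05, start sites within 500 bp and subunits alone kept the counts of called members at 0 in both tissues and the sign of the start-site medians. The setting that mattered in BAT was PC1. Without it the start-site median of 0.08 was -0.19 in limma and -0.18 in DESeq2 and edgeR. DESeq2 without PC1 called 1 member lower and 1 higher, against 0.517% and 0.512% of all peaks. The cause was not tested. With the replicate block, which leaves out PC1, the median was also -0.19 and no member was called. The deviations of same-numbered samples had correlations of 0.494, 0.063 and -0.236 in BAT and -0.039, -0.05 and -0.057 in iWAT. Those of differently numbered samples ran from -0.538 to 0.481 in BAT, so that replicate 1 had the highest value. The sample titles give no pairing, and the main tests treated the numbers as names.

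In BAT these named start-site differences changed sign when PC1 was left out. The values in limma, the same with the replicate block, were -0.22 for Cox4i1, -0.15 for Cox6a1, 0.18 for Cox6b2, -0.18 for Cox7a2, -0.21 for Cox7a2l, -0.04 for Cox8a, -0.36 for Cox8b, -0.23 for Atp5g2, -0.05 for Ndufa13 and -0.27 for Cox5a. DESeq2 without PC1 gave, in the same order, -0.22, -0.16, 0.18, -0.18, -0.20, -0.06, -0.35, -0.20, -0.05 and -0.27, with -0.00 for Sdhd, and edgeR without PC1 gave -0.22, -0.15, 0.19, -0.17, -0.19, -0.05, -0.35, -0.19, -0.04 and -0.26. Cyclic loess gave -0.02 for Cox4i1 and 1 start-site peak higher without overlap.

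In iWAT, limma with a mean-variance trend called 1 member lower and 2 higher, against 2.00% and 1.64% of all peaks. DESeq2 called 1 and 1, against 0.569% and 0.493%, and edgeR 1 and 2, against 2.52% and 2.15%. The cause was not tested. PC1 separated the genotypes completely in iWAT, so that a fit with it has little left to estimate the genotype from: the start-site median went from -0.03 to 0.32, and sign changed for Cox4i2 (-5.02), Cox6a1 (-0.43), Cox6b2 (-1.33), Cox7a1 (1.44), Cox7a2l (0.32), Cox8b (-1.69), Ndufa4l2 (0.06), Atp5sl (0.02), the Ndufb9 peak inside Mtss1 (-0.38), the Uqcr11 peak inside Tcf3 (-0.06), an Atp5o peak inside Itsn1 (-0.80) and Sdhb (0.35).

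Leaving out 1 sample at a time gave start-site medians of 0.01 to 0.12 in BAT and -0.04 to 0.01 in iWAT. Peaks lower without overlap numbered 14 to 36 in BAT (36 without flox 3, 28 without AKO 3), against 6.74% to 19.2% of all start-site peaks. In iWAT they numbered 7 to 16 (16 without AKO 3, 14 without flox 2), against 13.1% to 17.2%. Peaks higher without overlap numbered 0 to 2 in BAT, against 12.2% to 20%, and 7 to 13 in iWAT (13 without flox 2), against 12.6% to 18.9%. Sign changed in BAT for Cox4i1 (-0.06 to 0.20), Cox6a1 (-0.10 to 0.10), Cox7a1 (-0.16 to 0.28), Ndufa4 (-0.06 to 0.14), Atp5g1 (-0.36 to 0.28), Sdhd (-0.07 to 0.47), Uqcrq (-0.22 to 0.10) and Atp5c1 (-0.13 to 0.07), and in iWAT for Cox4i1 (-0.13 to 0.14), Cox4i2 (-0.23 to 0.61), Cox5a (-0.04 to 0.14), Cox6a1 (-0.05 to 0.07), Cox7a1 (-0.12 to 0.12), Ndufa4l2 (-0.20 to 0.04), Atp5g3 (-0.06 to 0.02) and Sdhb (-0.16 to 0.02). No pair of tissues passed the threshold in any setting run, a test in which 1 gene alone could not pass. The 6336670 reads of AKO 2 in BAT limit what its low peaks can show.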
